A study of Mus musculus with 6 samples.

Results

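The genes described are 39 smooth muscle genes. They encode contractile and cytoskeletal proteins, regulators of contraction and of contractile gene transcription, and markers of mural cells, the muscle cells and pericytes that wrap blood vessels. They were chosen by name, as every non-control probe whose gene name in the array design was on the list. The array design held 34797 gene names. All 39 genes were among the 21478 genes tested, those with a probe that exceeded background clearly on 3 or more of the 6 arrays, and each did so on all 6. They were read by 69 probes, of which 63 passed that filter.

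RNA came from aortic arteries of C57BL/6 mouse fetuses at E18.5, late in mouse gestation. All dams were Nod1 -/-, had been mated with Nod1 +/- males and had received 500 µg of FK565, a synthetic ligand of the peptidoglycan sensor NOD1, under the skin 6 h before the vessels were taken. One group held 3 arrays from Nod1 +/- fetuses, which carry 1 working allele of the receptor, and the other 3 arrays from Nod1 -/- fetuses, which carry none. Both groups were therefore exposed to the ligand through a mother that lacks the receptor, and there was no group without FK565. The labels do not say whether an array held 1 fetus or a pool, or which cells of the vessel were taken, and p-values here rest on the spread among arrays only. Acta2, Tagln and Cnn1, markers of smooth muscle, read far above the 75th percentile on all 6 arrays. Heart muscle genes were also read on all 6, and the mean of skeletal muscle genes set Nod1 +/- replicate 1 apart, with values given beside desmin.

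Smooth muscle cells contract when calcium and calmodulin activate myosin light chain kinase, which phosphorylates the regulatory light chain of smooth muscle myosin. Myosin phosphatase reverses that step. Most genes of the contractile apparatus carry CArG boxes, the DNA sites bound by the serum response factor SRF, and SRF acts there with myocardin or with the myocardin-related factors MKL1 and MKL2. When vascular smooth muscle is injured or inflamed it can lower its contractile genes, a state called the synthetic phenotype. In a fetal aorta near term these genes are strongly transcribed in the medial layer.

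The genotypes were compared to ask which genes differ when the fetus itself can sense the ligand. Without a group that had no FK565, a response to it cannot be told apart from a difference already present. Values are log2 signals minus the 75th percentile of each array, so 0 is the level of that percentile, and differences are Nod1 +/- minus Nod1 -/- on the log2 scale. Tests are limma's, with Benjamini-Hochberg adjustment over all 21478 genes, and a gene is said to be higher or lower, or to have changed, only when its adjusted p was under 0.05. The 75th percentile of signal was 372 to 435 on the Nod1 +/- arrays and 393 to 440 on the Nod1 -/- arrays. Genes of the NF-kB response, through which NOD1 signals, were read beside the labels. Of these, 7 of 7 were higher in Nod1 +/- aortas, against 7.66% of all genes, with a median difference of 5.61. That list was chosen with earlier results of these data known, so the count is not an independent check of the labels. The Nod1 probe itself read 3.15, 3.20 and 3.78 on the Nod1 +/- arrays and 3.20, 3.19 and 3.35 on the Nod1 -/- arrays, a difference of 0.13 (standard error 0.19, adjusted p = 0.648), and whether it lies in the deleted part of the gene is not given in the sources used here.

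The strict 10-letter form of the CArG box was searched on both strands in RefSeq promoters of build GRCm38.p6, from 250 bases before to 50 after each start. Entries were given for 34 of the 39 genes, and 5 of those 34 (14.7%) held a match, against 488 of 27025 genes in the table (1.81%). A match is a run of letters and not evidence of binding. Looser forms and more distant sites were not searched, so genes without a match may still hold boxes. The genes were chosen as smooth muscle genes, so the 2 shares are a description and not a test. The 5 genes are SRF itself, calponin 2, vinculin and the myosin light chains Myl6 and Myl9. Their differences had no common direction, at 0.86 for Srf, 0.47 for Cnn2, 0.27 for Vcl, -0.12 for Myl6 and -0.21 for Myl9. Of the 5, only Srf passed. Whether genes with the site differ from other genes was not tested. Capitals mark the CArG boxes, and each stretch is written along the strand of its gene. The Srf stretch lies at chr17:46556195-46556264 (minus strand) and holds 2 boxes, starting 82 and 62 bases before the start site. The others lie at chr10:79988524-79988573 (Cnn2, plus), chr14:20929151-20929200 (Vcl, plus), chr10:128493030-128493079 (Myl6, minus) and chr2:156775283-156775332 (Myl9, plus).
Srf: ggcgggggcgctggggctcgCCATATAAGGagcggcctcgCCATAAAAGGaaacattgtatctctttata
Cnn2: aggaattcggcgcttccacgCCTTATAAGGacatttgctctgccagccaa
Vcl: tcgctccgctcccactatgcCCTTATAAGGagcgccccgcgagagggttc
Myl6: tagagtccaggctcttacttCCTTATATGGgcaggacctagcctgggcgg
Myl9: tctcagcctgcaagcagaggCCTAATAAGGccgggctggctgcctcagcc

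The probes that read the genes with a changed level are shown next, because each result is the reading of these letters alone. Positions are those of build mm9 in the array files. The desmin probe lies between 75363404 and 75363629 on chromosome 1 (plus strand), a span longer than its 60 letters, and is given whole. Of the probes for Srf (chromosome 17, minus strand), Hspb1 (chromosome 5, 136365366 to 136365425, plus) and Myh10 (chromosome 11, 68630067 to 68630126, plus) the first 30 letters are given. The files list the Srf probe at 46683788 to 46683795, which is shorter than the probe.
Des: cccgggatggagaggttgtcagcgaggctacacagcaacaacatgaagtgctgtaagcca
Srf: ggtgtatccctaattaagtgcctctagggg
Hspb1: gctcttttgatacatacatttacctgctgt
Myh10: ttggaggaaaaagcacccgttgagaacaaa

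Of the 39 genes, 3 were higher in Nod1 +/- aortas (Des, Srf and Hspb1) and 1 was lower (Myh10), which is 10.3% of them against 18.7% of all genes tested. Over all genes, 7.66% were higher and 11% lower, that is 1646 and 2366 genes, and scaling to the median in place of the 75th percentile turned these counts to 1580 and 926 with the same 4 of the 39 genes called. The 2 genotypes did not overlap in 16 of the 39 genes (41%), against 42.4% of all genes. An unadjusted p under 0.05 was found for 13 of them (33.3%) and for 35.6% of all genes. Their median difference was 0.12, with 23 genes above 0 and 16 below, and the median of all genes tested was -0.10. Differences were smaller than 0.5 in either direction for 30 of the 39 genes (76.9%), against 72.9% of all genes. The SD between arrays of a genotype was at the median 0.20 in Nod1 +/- and 0.18 in Nod1 -/- aortas for these genes, against 0.18 and 0.16 for all genes, and the half-width of the 95% confidence interval was 0.38 at the median.

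**Figure D1:**
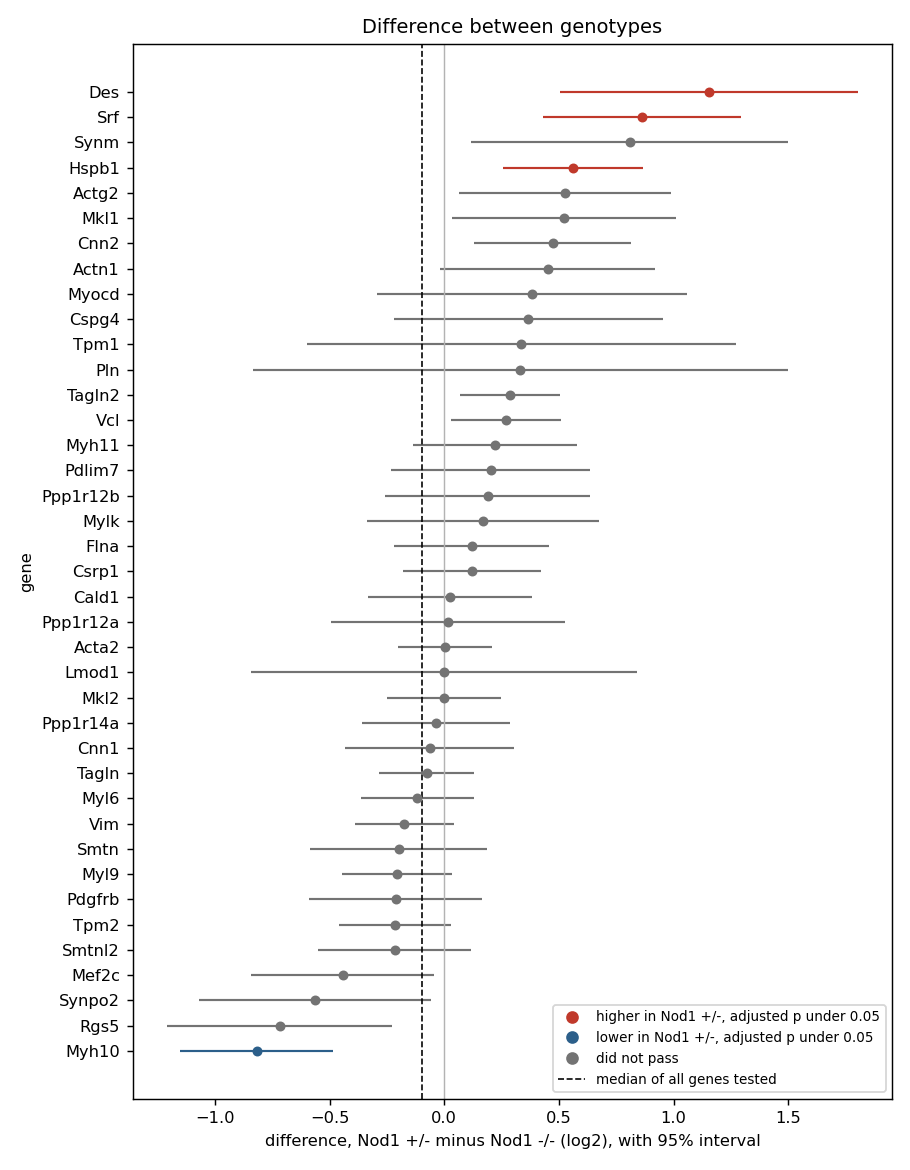
Difference in log2 signal between Nod1 +/- and Nod1 -/- aortas (horizontal axis) for each of the 39 genes (vertical axis, ordered by difference), with 95% confidence intervals. Des, Srf and Hspb1 are coloured as higher, Myh10 as lower, and the dashed line at -0.10 is the median of all genes tested.

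Of the 7 genes of actin and myosin, the motor itself, 0 were higher and 1, a nonmuscle myosin, was lower. That is 14.3% changed, against 18.7% of all genes, and the median difference was 0.00. Acta2, the smooth muscle alpha-actin that forms the bulk of the thin filaments, read 8.79, 8.82 and 8.77 on the Nod1 +/- arrays and 8.77, 8.81 and 8.79 on the Nod1 -/- arrays. The 6 values lie within the same narrow band, and the difference was 0.00 with a 95% confidence interval of -0.20 to 0.21 (adjusted p = 0.979). Of the spots of this probe, 4 were flagged as outliers and left out. Myh11, the smooth muscle myosin heavy chain, read 3.77, 3.93 and 3.99 in Nod1 +/- and 3.41, 3.77 and 3.85 in Nod1 -/- aortas. These groups overlap, and the difference of 0.22 had an interval of -0.14 to 0.58 (adjusted p = 0.322).

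Myh10, the heavy chain of nonmuscle myosin IIB, which is abundant in embryonic smooth muscle and in synthetic cells, was the lower gene. Its values were 3.15, 3.22 and 3.47 in Nod1 +/- and 3.93, 4.11 and 4.27 in Nod1 -/- aortas. Every Nod1 +/- array was below every Nod1 -/- array, and the difference was -0.82 (standard error 0.14, adjusted p = 0.013), a 1.76-fold lower signal. The call was lost without Nod1 -/- replicate 2 (adjusted p = 0.0563). In that fit 6.79% of all genes were called, against 18.7% with all 6 arrays. Its second probe was above background on only 2 arrays and was not used. Actg2, the gamma-actin typical of enteric smooth muscle, read 6.54, 6.31 and 6.93 in Nod1 +/- and 5.84, 6.17 and 6.18 in Nod1 -/- aortas, without overlap, but the difference of 0.53 did not pass (standard error 0.19, adjusted p = 0.107). Mylk, the light chain kinase, and the light chains Myl6 and Myl9 differed by 0.17, -0.12 and -0.21, and none passed.

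**Figure D2:**
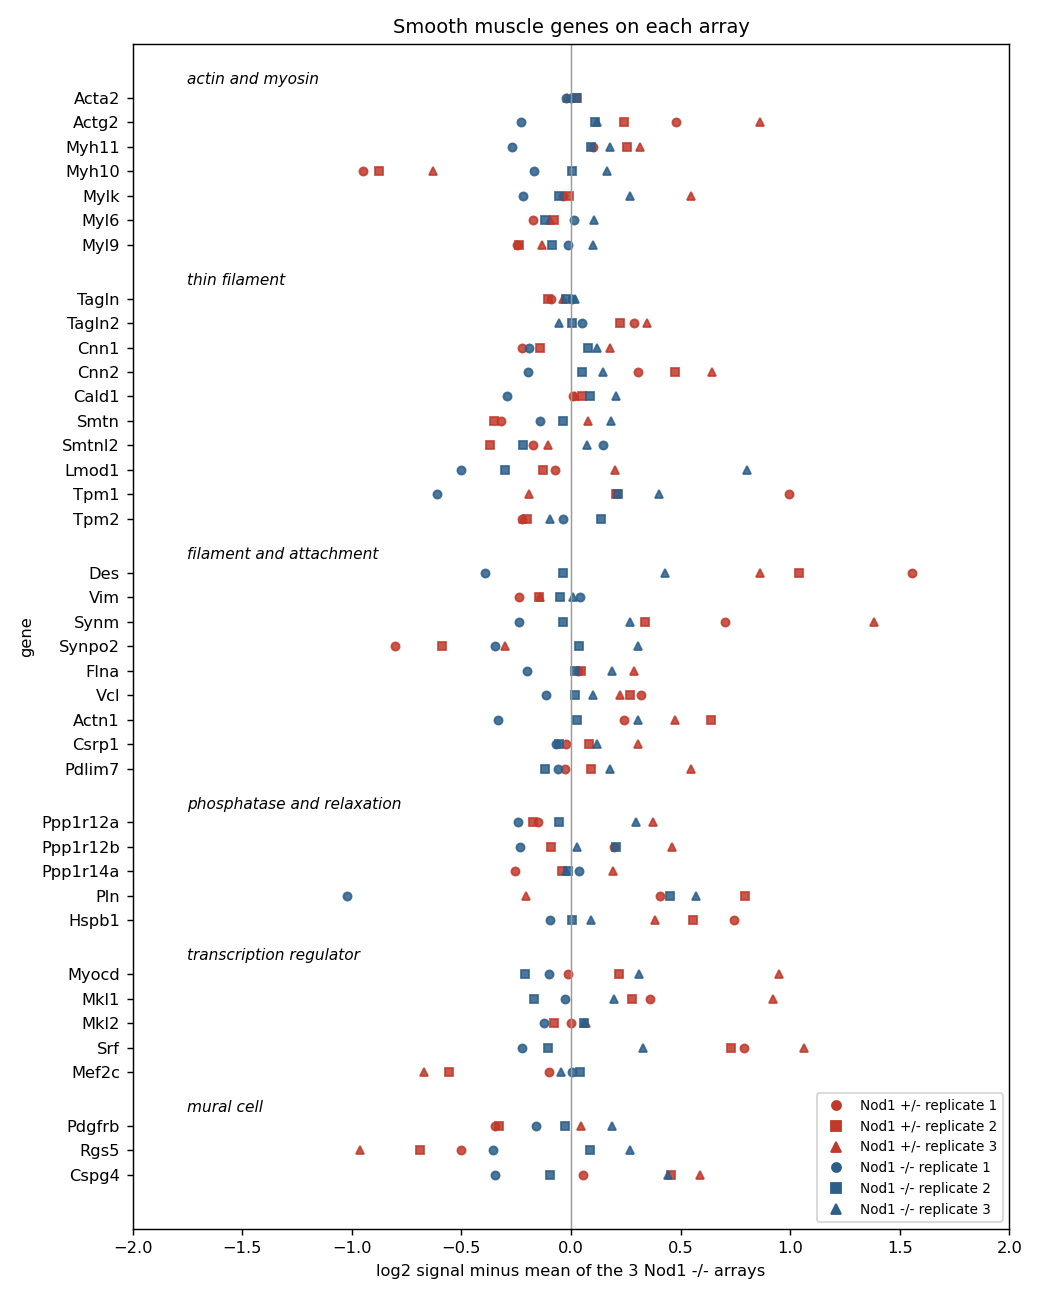
Signal of the 39 genes on each array, as log2 signal minus the mean of the 3 Nod1 -/- arrays (horizontal axis), grouped by role (vertical axis). Red marks are Nod1 +/- and blue marks Nod1 -/- arrays, and shapes give the replicate; the 6 marks of Acta2 coincide, whereas the red marks of Srf, Hspb1 and Des all lie to the right of the blue ones and those of Myh10 to the left.

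Of the 10 genes for proteins on the thin filament, 0 passed limma's adjusted threshold, against 18.7% of all genes. An unadjusted p under 0.05 was found for 2 (Cnn2 and Tagln2), and for 35.6% of all genes. The median difference was -0.03. Tagln (transgelin, also called SM22 alpha), a standard marker of differentiated smooth muscle, read 8.69, 8.67 and 8.74 in Nod1 +/- and 8.78, 8.75 and 8.80 in Nod1 -/- aortas. The groups do not overlap, although the difference was only -0.08 (standard error 0.09, adjusted p = 0.553). Cnn1, calponin, which restrains the myosin ATPase, read 6.94, 7.02 and 7.34 in Nod1 +/- and 6.97, 7.24 and 7.28 in Nod1 -/- aortas, with overlap. Its difference was -0.06 (interval -0.44 to 0.31; adjusted p = 0.791).

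The list also holds more widely expressed relatives of these proteins. Cnn2, the calponin found in many motile cells, read 4.78, 4.95 and 5.12 in Nod1 +/- and 4.28, 4.53 and 4.63 in Nod1 -/- aortas. Those groups do not overlap, and the difference was 0.47 (standard error 0.14, adjusted p = 0.0647). Tagln2, the broadly expressed transgelin, differed by 0.29 (standard error 0.09, adjusted p = 0.0764), again without overlap. Whether Cnn2 differed from Cnn1, or Tagln2 from Tagln, in its difference between genotypes was not tested. The part of cells other than smooth muscle in the Cnn2 and Tagln2 readings was not tested either. The caldesmon gene Cald1, the smoothelin genes Smtn and Smtnl2, the actin nucleator Lmod1 and the tropomyosins Tpm1 and Tpm2 differed by -0.22 to 0.34, and none passed.

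Tropomyosin lies along the actin filament, and Tpm1 was read by 6 kept probes whose differences ranged from -0.08 to 0.65. The Tpm1 probe with the highest signal read 7.94, 7.15 and 6.75 in Nod1 +/- and 6.33, 7.15 and 7.34 in Nod1 -/- aortas, a spread far wider than that of Acta2 or Tagln. A second probe that shares 46 bases with it gave the same order of arrays within each genotype and a difference of 0.30. Another probe on chromosome 9 (66880274 to 66880333, minus strand) read 0.67, 0.34 and 0.72 in Nod1 +/- and -0.18, -0.05 and 0.01 in Nod1 -/- aortas. On that probe the genotypes do not overlap, and it passed in the fit over all 30166 kept probes (difference 0.65, standard error 0.14, adjusted p = 0.0279). A probe at 66871166 to 66871225 differed by -0.02 (standard error 0.13). Tpm1 is known for many splice forms, and the probe letters are given because they read different stretches of the gene.
Tpm1 at 66880274: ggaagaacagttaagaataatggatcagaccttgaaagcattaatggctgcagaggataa
Tpm1 at 66871166: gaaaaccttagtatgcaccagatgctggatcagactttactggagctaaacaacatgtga

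Among the 9 genes of intermediate filaments and of the plaques that anchor filaments to the membrane, 1 was higher and 0 were lower. The share changed was 11.1%, against 18.7% of all genes, and the median difference was 0.20. Des, desmin, the intermediate filament of muscle cells, read 2.39, 1.87 and 1.69 in Nod1 +/- and 0.44, 0.79 and 1.26 in Nod1 -/- aortas. All 3 Nod1 +/- arrays were above all 3 Nod1 -/- arrays, and the difference was 1.16 (standard error 0.27, interval 0.51 to 1.80, adjusted p = 0.0335), or 2.23-fold. Leaving out the first or second array of either genotype ended the call, with an adjusted p of 0.0761 to 0.11. In those fits 6.79% to 9.97% of all genes were called, against 18.7% with all 6 arrays.

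Desmin is made by striated as well as smooth muscle, and markers of both striated types varied between the arrays. The mean over 17 tested of 18 cardiac genes was 4.11, 3.92 and 3.30 on the Nod1 +/- arrays and 2.81, 3.45 and 3.80 on the Nod1 -/- arrays. Within each genotype this is the order of the arrays for Des and for the brightest Tpm1 probe. Of the 17 cardiac genes 0 passed, against 18.7% of all genes, and 2 had an unadjusted limma p under 0.05, against 35.6%. All 17 had a difference above 0 and their median was 0.31. Myh6, the atrial myosin heavy chain, reached 8.37 on Nod1 +/- replicate 1 and was lowest, at 7.41, on Nod1 -/- replicate 1, and 1 cardiac gene (Nppb) was not above background on 3 arrays.

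Skeletal muscle markers set a single array apart. The mean over 20 tested of 28 skeletal genes on the array was 4.23 on Nod1 +/- replicate 1, and between -0.04 and 0.69 on the other 5 arrays. Of the 20 genes, 0 passed limma's threshold and 0 had an unadjusted p under 0.05, against 18.7% and 35.6% of all genes. All 20 had a difference above 0, and their median was 0.99. Myod1 was above background on 0 arrays, and Myog, Myh1, Myh4, Mylpf, Ryr1, Xirp2 and Myot on at most 2. The part of striated muscle RNA in the desmin result was not tested. Without Nod1 +/- replicate 1 the desmin difference was 0.95, and without the first replicate of both genotypes 0.76 (adjusted p = 0.151).

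Synm, synemin, a partner of desmin in the intermediate filament, was read by 3 probes that passed the filter. On the brightest probe it read -1.08, -1.44 and -0.40 in Nod1 +/- and -2.02, -1.82 and -1.51 in Nod1 -/- aortas, without overlap, and the difference of 0.81 did not pass (standard error 0.29, adjusted p = 0.1). Its other 2 probes differed by 1.17 (adjusted p = 0.0196) and 1.01 (adjusted p = 0.0158) in the fit over probes, so the call depended on the probe but the direction did not. Synemin was highest on Nod1 +/- replicate 3 with each of the 3 probes, unlike desmin, which was lowest there among the Nod1 +/- arrays.

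Vcl, vinculin, which links actin to integrin and cadherin contacts, was read by a pair of probes that gave unequal differences. The brighter probe read 4.43, 4.37 and 4.33 in Nod1 +/- and 3.99, 4.12 and 4.21 in Nod1 -/- aortas, a difference of 0.27 that did not pass (adjusted p = 0.11). Within each genotype that is the array order of the cardiac list. The dimmer probe, between 21848574 and 21849035 on chromosome 14 (plus strand), read 0.25, 0.33 and 0.48 in Nod1 +/- and -0.80, -0.62 and -0.19 in Nod1 -/- aortas, a difference of 0.89 (standard error 0.18, adjusted p = 0.0241 over probes). Among the Nod1 +/- arrays the dimmer probe had the reverse of the cardiac order, and among the Nod1 -/- arrays the same order. The part of cardiac RNA in either reading was not tested. Letters of the dimmer probe follow because the reading of vinculin turns on it.
Vcl: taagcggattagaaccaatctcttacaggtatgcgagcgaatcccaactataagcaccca

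Synpo2, synaptopodin 2, an actin-bundling protein of the Z-disc and of smooth muscle, had probes of opposite sign. The brightest differed by -0.56 (adjusted p = 0.112), and the other 2 by 0.43 and 0.06, and none passed. Vim, vimentin, the intermediate filament of mesenchymal cells, was 6.78 to 6.88 in Nod1 +/- and 6.97 to 7.06 in Nod1 -/- aortas, a difference of -0.18 (adjusted p = 0.213). The remaining genes were Flna (the actin cross-linker filamin A), Actn1 (alpha-actinin), Csrp1 and Pdlim7 (LIM proteins of the actin cytoskeleton). They differed by 0.12 to 0.45 without passing.

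**Figure D3:**
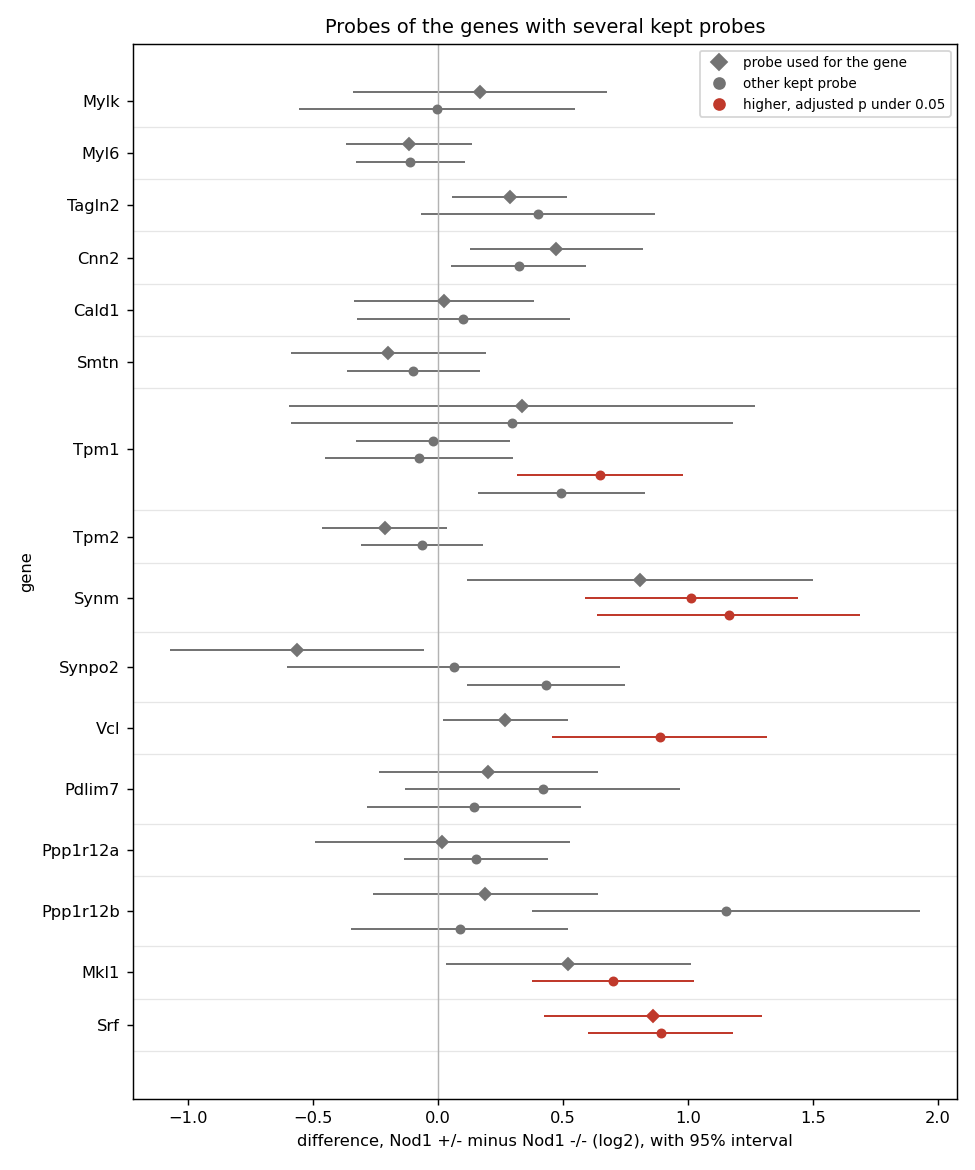
Difference in log2 signal (horizontal axis, with 95% confidence interval) for each kept probe of the 16 genes read by several such probes (vertical axis). Diamonds are the probes used for the gene and red marks the probes higher in Nod1 +/- aortas; the pair for Srf agree, at 0.86 and 0.89, whereas those for Vcl, Tpm1 and Synpo2 do not.

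Of the 5 genes for myosin phosphatase subunits, their inhibitor and proteins linked to relaxation, 1 was higher and 0 lower (20%, against 18.7% of all genes). Hspb1, the small heat shock protein HSP27, a stress protein that binds actin in smooth muscle, read 6.85, 6.67 and 6.49 in Nod1 +/- and 6.01, 6.11 and 6.20 in Nod1 -/- aortas. The lowest Nod1 +/- array was above the highest Nod1 -/- array, and the difference was 0.56 (standard error 0.13, adjusted p = 0.0304), or 1.48-fold. Leaving out any array but Nod1 +/- replicate 3 ended the call, with an adjusted p of 0.0514 to 0.1. In those fits 6.79% to 14.7% of all genes were called, against 18.7% with all 6 arrays. The difference was 0.47 without Nod1 +/- replicate 1. The order of the arrays for Hspb1 within each genotype was also that of the cardiac list, and the part of cardiac RNA in this result was not tested.

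The myosin phosphatase subunits Ppp1r12a and Ppp1r12b and the phosphatase inhibitor Ppp1r14a (CPI-17) did not pass. Ppp1r12a and Ppp1r14a differed by 0.02 and -0.04. Ppp1r12b differed by 0.19 on its brightest probe (standard error 0.18, adjusted p = 0.495) and by 1.15 on another (standard error 0.32, adjusted p = 0.0589 over probes). Pln, phospholamban, which brakes the calcium pump of the sarcoplasmic reticulum, had the widest interval of the 39 genes, with values of -1.15, -0.76 and -1.76 in Nod1 +/- and -2.58, -1.10 and -0.98 in Nod1 -/- aortas.

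Among the 5 transcriptional regulators, Srf was higher and 0 were lower (20% changed, against 18.7% of all genes). The median difference of the group was 0.38. Srf read 2.77, 2.71 and 3.04 in Nod1 +/- and 1.75, 1.87 and 2.30 in Nod1 -/- aortas. The groups do not overlap, and the difference was 0.86 (standard error 0.18, interval 0.43 to 1.29, adjusted p = 0.024), or 1.82-fold. Its second probe, which does not share bases with the first, read 0.99, 1.07 and 0.96 in Nod1 +/- and 0.00, 0.03 and 0.31 in Nod1 -/- aortas, a difference of 0.89 (standard error 0.12, adjusted p = 0.00783 over probes). For the brighter probe the call was lost when any Nod1 +/- array, or the first or second Nod1 -/- array, was left out, with an adjusted p of 0.0536 to 0.0907. In those fits 6.79% to 15.8% of all genes were called, against 18.7% with all 6 arrays. The difference was 0.90 without Nod1 +/- replicate 1. Among the Nod1 +/- arrays Srf was highest on replicate 3, where the cardiac list was lowest, and among the Nod1 -/- arrays its order was that of the cardiac list. The part of cardiac RNA in the Srf result was not tested.

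Myocd, myocardin, the muscle-restricted coactivator of SRF, read 1.80, 2.03 and 2.76 in Nod1 +/- and 1.71, 1.60 and 2.12 in Nod1 -/- aortas. The groups overlap, and the difference of 0.38 had an interval of -0.29 to 1.06 (adjusted p = 0.364). Mkl1, which carries actin signals to SRF, differed by 0.52 on its brightest probe (adjusted p = 0.122) and by 0.70 on the other (standard error 0.13, adjusted p = 0.0207 over probes). Its relative Mkl2 differed by 0.00 (standard error 0.10). Mef2c, a MADS-box factor of muscle and endothelium, read 0.34, -0.12 and -0.23 in Nod1 +/- and 0.45, 0.48 and 0.40 in Nod1 -/- aortas, without overlap. Its difference of -0.44 did not pass (standard error 0.16, adjusted p = 0.112) except without Nod1 +/- replicate 1 (adjusted p = 0.0368).

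**Figure D4:**
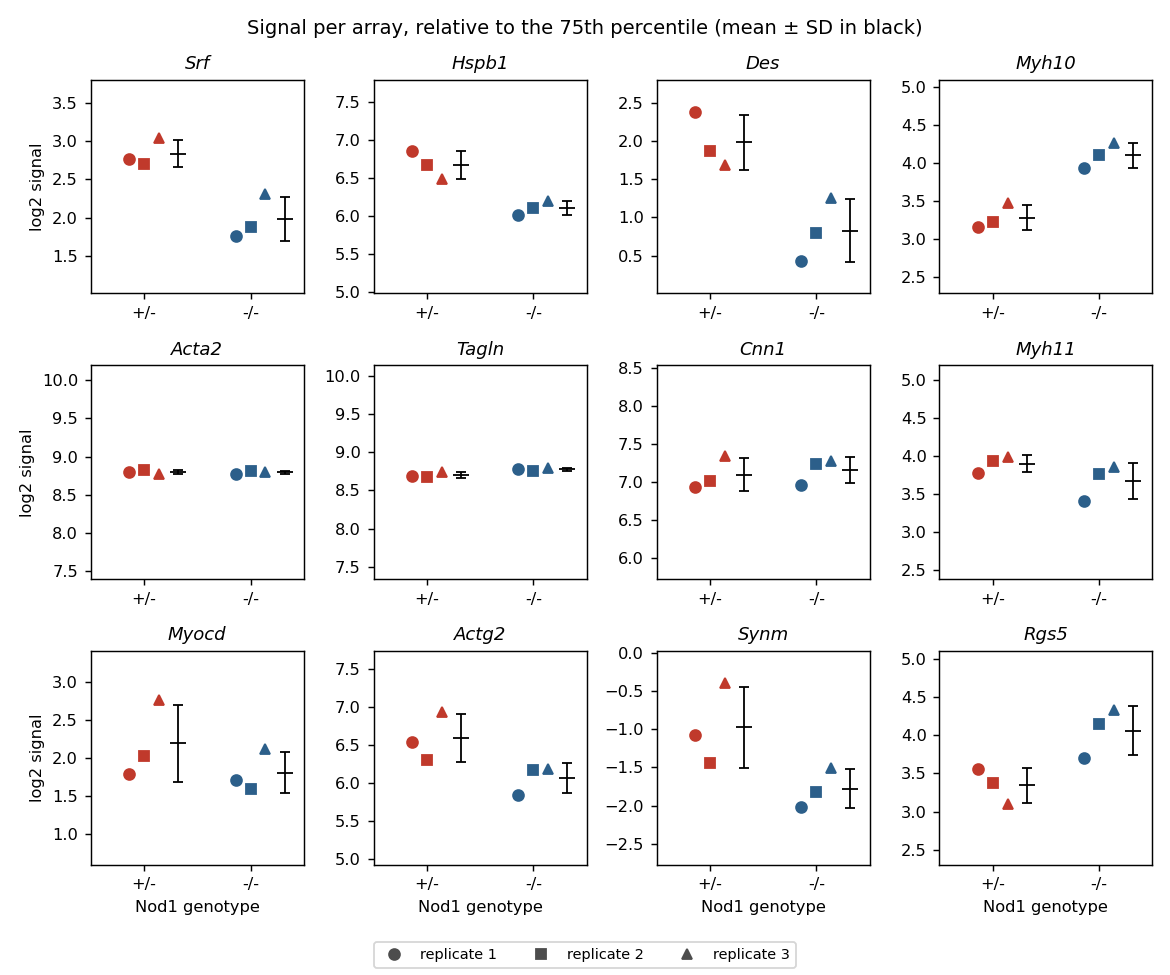
Log2 signal relative to the 75th percentile (vertical axes) on each array by genotype (horizontal axes) for 12 genes, with the mean and SD of 3 arrays in black. All panels span the same number of log2 units, so the flat rows of Acta2 and Tagln and the separated groups of Srf, Hspb1, Des and Myh10 can be read at 1 scale.

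Of the 3 mural cell genes 0 passed, against 18.7% of all genes. Rgs5 was the 1 gene with an unadjusted limma p under 0.05, against 35.6% of all genes. Rgs5, a regulator of G-protein signalling that marks pericytes and arterial smooth muscle, read 3.56, 3.38 and 3.10 in Nod1 +/- and 3.71, 4.15 and 4.33 in Nod1 -/- aortas. The groups do not overlap, and the difference was -0.72 (standard error 0.20, interval -1.21 to -0.23, adjusted p = 0.056). It passed in 4 of 22 alternative settings, without Nod1 -/- replicate 1 (adjusted p = 0.0435), with normexp background correction (adjusted p = 0.0392), with the filter on all 6 arrays (adjusted p = 0.0399) and with an intensity trend (adjusted p = 0.029). Cspg4, the NG2 proteoglycan, differed by 0.37 (standard error 0.24, adjusted p = 0.322) and Pdgfrb, the receptor for platelet-derived growth factor B, by -0.21 (standard error 0.16, adjusted p = 0.371), with overlapping groups in both. In RNA from aortic arteries, where the labels do not give the cells taken, fewer cells of a type and less RNA per cell cannot be told apart.

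Other genes of the same pathways were then read by role, for 118 of 123 listed genes. Of 24 further genes of the contractile machinery, 1 was higher and 1 lower. Ppp1cb, the catalytic subunit of myosin phosphatase, was the lower gene, with a difference of -0.47 (standard error 0.09, adjusted p = 0.0164). The share of changed genes was 8.33%, against 18.7% of all genes.

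Of 37 further SRF target genes, 6 were higher and 4 lower (27% changed, against 18.7% of all genes), with a median difference of 0.16. Among all genes 7.66% were higher and 11% lower. Ctgf, a matricellular protein also known as CCN2, read 7.45, 7.18 and 7.42 in Nod1 +/- and 6.22, 6.50 and 6.54 in Nod1 -/- aortas, a difference of 0.93 (standard error 0.14, adjusted p = 0.00846). Cyr61, its relative CCN1, was higher by 0.92 (adjusted p = 0.00944). In the other direction, the creatine kinase gene Ckb differed by -0.68 (adjusted p = 0.00993) and the muscle LIM protein gene Pdlim3 by -0.73 (adjusted p = 0.015). The count of 6 fell to 3 without Nod1 +/- replicate 2, and to 2 without Nod1 -/- replicate 1 or without replicate 2 of that genotype. In those fits 6.79% to 9.7% of all genes were called.

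Of 24 further regulators of the smooth muscle phenotype, 7 were higher and 2 lower (37.5% changed, against 18.7% of all genes). Abra, an actin-binding activator of MKL and SRF signalling, was higher by 0.95 (adjusted p = 0.0137), Elk4, a ternary complex factor that binds SRF, by 0.53 (adjusted p = 0.0139) and Klf5, a zinc finger factor of synthetic smooth muscle, by 0.99 (adjusted p = 0.0156). Wwtr1 (TAZ), a coactivator of the Hippo pathway, differed by -0.70 (adjusted p = 0.0136). Of 21 genes of calcium handling, 1 was higher and 5 lower (28.6%, against the same 18.7%). Sdpr and Cav2, both proteins of caveolae, differed by -0.76 (adjusted p = 0.00741) and -1.15 (adjusted p = 0.0115), and the inositol trisphosphate receptors Itpr3 and Itpr2 by -0.67 (adjusted p = 0.0285) and -0.58 (adjusted p = 0.0288).

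The list of 15 further mural and pericyte genes had the highest share of changed genes among these 5 lists, with 0 higher and 8 lower (53.3%, against 11% lower among all genes) and a median difference of -0.71. Heyl, a Notch target of vascular smooth muscle, read 2.07, 2.38 and 2.60 in Nod1 +/- and 3.56, 3.69 and 3.69 in Nod1 -/- aortas, a difference of -1.30 (standard error 0.15, adjusted p = 0.00464). Rgs4, a relative of Rgs5, differed by -0.77 (adjusted p = 0.00511), Cox4i2, a cytochrome oxidase subunit typical of pericytes, by -0.70 (adjusted p = 0.00853) and Anpep, the aminopeptidase CD13, by -0.82 (adjusted p = 0.00878). The 8 genes also include Tbx18, Kcnj8, Abcc9 and Angpt1, whereas Notch3 differed by -0.19 (adjusted p = 0.532). The count was 5 without Nod1 +/- replicate 1, without Nod1 +/- replicate 2 or without Nod1 -/- replicate 2. In those fits 6.79% to 9.97% of all genes were called, against 18.7% with all 6 arrays.

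Markers of other cells were read beside the mural list. Of 17 fibroblast genes 0 were higher and 4 lower (23.5%, against 18.7% of all genes), and the mean of the list was 4.93 to 5.06 on the Nod1 +/- arrays and 5.20 to 5.43 on the Nod1 -/- arrays. Of 15 tested genes of Schwann cells and nerve 0 were higher and 3 lower (20%), with means from -0.76 to 0.62 and from 0.21 to 2.13. The 19 endothelial genes split into 3 higher and 4 lower (36.8%), with means of 2.20 to 2.43 and 2.46 to 2.66. Of 16 neutrophil genes 11 were higher and 0 lower (68.8%), with a median difference of 3.07 and means of 1.75 to 2.35 and -0.36 to -0.22. Of 8 tested red cell genes 0 passed limma's threshold, and 3 had an unadjusted p under 0.05, against 35.6% of all genes. All 8 had a difference below 0, and the median was -0.59. The part of these cells in the mural result was not tested.

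**Figure D5:**
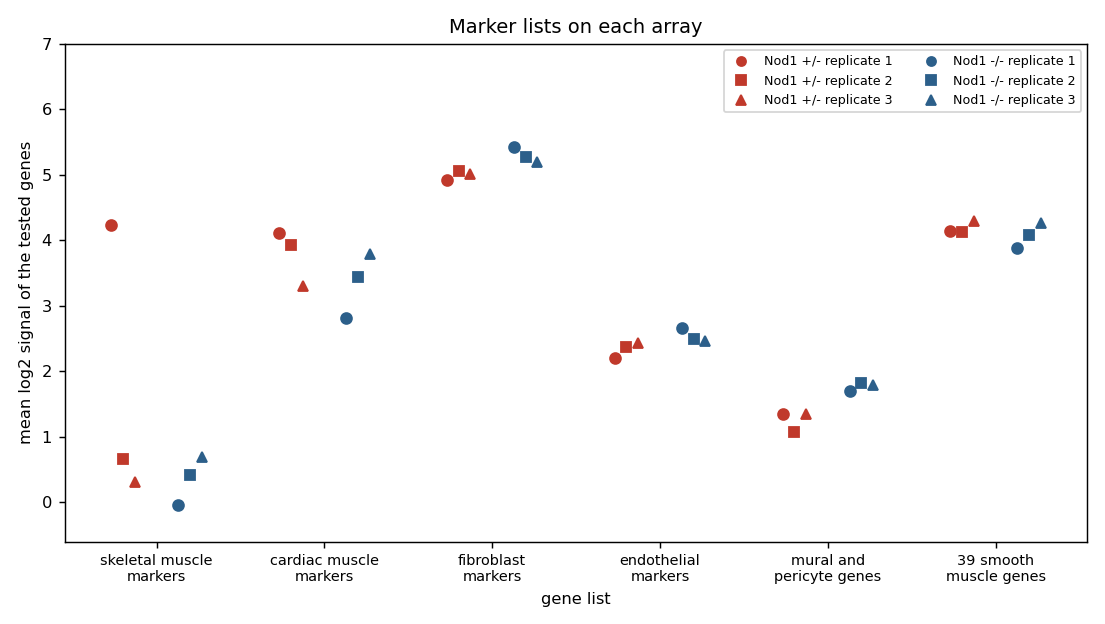
Mean log2 signal of the tested genes of each list (vertical axis) on each array, by list (horizontal axis). Nod1 +/- replicate 1 stands apart at 4.23 for skeletal muscle markers, and the mural and pericyte genes lie at 1.07 to 1.35 on Nod1 +/- arrays and at 1.70 to 1.83 on Nod1 -/- arrays.

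Across the 39 genes some arrays read high or low whatever the genotype. Of the 39 genes, 18 had their highest value on Nod1 +/- replicate 3 and 10 on Nod1 -/- replicate 3, whereas 21 had their lowest on Nod1 -/- replicate 1. The mean over the 39 genes was 4.15, 4.13 and 4.30 on the Nod1 +/- arrays and 3.89, 4.08 and 4.27 on the Nod1 -/- arrays, which overlap. On the slide, Nod1 -/- replicates 1 and 2 lay in the first row and the other 4 arrays in the second. With the row as a block, which rests on Nod1 -/- replicate 3 alone as the comparison, none of the 4 calls held. The differences then were 0.53 for Srf (adjusted p = 0.168), 0.47 for Hspb1 (adjusted p = 0.209), 0.72 for Des (adjusted p = 0.246) and -0.98 for Myh10 (adjusted p = 0.0527). In that fit 4.81% of all genes changed. With the signal of Xist, which marks female fetuses, as a covariate, Srf (adjusted p = 0.0582), Hspb1 (adjusted p = 0.0677) and Des (adjusted p = 0.0618) no longer passed and Myh10 did, while 10.6% of all genes changed.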

How the data were processed

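The authors deposited Agilent scanner output of 6 one-colour (Cy3) arrays, in which the background-subtracted intensity of each spot is linear. The program was Feature Extraction, version 10.7.1.1 in the file headers but 9.5.1.1 in the processing notes of the submitters, and which is right is not known. The deposited value table, also an intensity table by the authors, served as an alternative. Probe positions are of build mm9, per the file headers.

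Outlier spots were left out, none was saturated, spots of a probe were averaged on the log2 scale and each array was scaled by subtracting the 75th percentile of its non-control probes. Probes that Feature Extraction marked as well above background on 3 or more of 6 arrays were kept, and the kept probe of highest mean stood for its gene. The test was limma's (version 3.58.1, lmFit then eBayes, in R 4.3.3), with Benjamini-Hochberg adjustment over 21478 genes or, where stated, over 30166 probes. The script was tested on simulated data. Precision is limited by the number of arrays.

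The 39 genes and the other lists were chosen with earlier results of these data known. Named genes are those past the threshold, the main markers, the 2 smallest p in each role and up to 4 changed genes of each further list, in order of p. Genes named outside this rule were chosen after their values were seen. The higher gene among the further contractile genes is not reported here. Promoters came from RefSeq (GRCm38.p6), with no entry for Actg2, Myh11, Myocd, Pdgfrb and Tagln. Plots were drawn with matplotlib 3.10.9. Alternatives covered background correction, scaling, probe filters and summaries, variance models, blocks, an Xist covariate, a 2-fold minimum and each array left out.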

Additional observations from a re-analysis of the deposited data

How the results depend on the processing

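Over 22 alternative settings the median difference of the 39 genes ranged from -0.06 to 0.22, against 0.12 in the main fit. It was below 0 with the slide row as a block (-0.063), without Nod1 -/- replicate 1 (-0.008) and without both first replicates (-0.006). The SD between arrays of the median level of these genes was 0.23. Because that SD exceeds 0.12, it cannot show that the difference is stable. The count of higher genes, 3, was 7 with every kept probe, 6 with the mean of a gene's probes or array weights, 5 with an intensity trend, 1 with a 2-fold minimum, and 0 without the filter on dim probes, with Xist as a covariate, with the slide row as a block or without both first replicates. Leaving out 1 array gave 0 to 2. Of all genes, 6.79% to 15.8% were called with 1 array left out and 5.6% with a 2-fold minimum, against 18.7% in the main fit. The count of lower genes, 1, was 2 with normexp, with the filter on all 6 arrays, with an intensity trend or with the replicate block, 0 with a 2-fold minimum, the slide row or without both first replicates, and 0 to 2 with 1 array left out. The 8 lower mural and pericyte genes became 5 without the filter, 2 with the slide row, 1 with a 2-fold minimum, 1 without both first replicates and 5 to 8 with 1 array left out. The 6 higher SRF targets became 2 without the filter, 3 with Xist, 0 with the slide row, 0 with a 2-fold minimum, 1 without both first replicates and 2 to 6 with 1 array left out. These last 2 counts and the percentile over spots were added after the data had been seen. Differences near 0 changed sign, and so did the larger one of Cspg4. That of Acta2 was -0.013 with normexp, -0.006 without both first replicates, -0.011 with the percentile over spots and -0.009 to 0.014 with 1 array left out. That of Cnn1 was 0.058 with quantile scaling, 0.058 with the deposited table, 0.041 with median scaling and -0.185 to 0.018 with 1 array left out. Tagln was 0.027 with median scaling. Cspg4, at 0.366 in the main fit, was -0.075 with the slide row. The cause of these changes was not tested. Median scaling moved the median of all genes from -0.10 to 0.01 and the calls over all genes from 1646 higher and 2366 lower to 1580 and 926. Calls over all genes fell from 18.7% to 4.71% without the filter, which tests 34743 genes, and to 2.98% without both first replicates. Same-numbered arrays correlated by 0.08, 0.28 and 0.11 in their deviations from the genotype means, and replicates 1 and 2 but not 3 of Nod1 +/- correlated best with their own number. Because 1 pair lay under 0.1, the arrays were not taken as paired. With the replicate block, Des (adjusted p = 0.0839) and Hspb1 (adjusted p = 0.0659) were not called, Cnn2, Mkl1 and Synpo2 were, and 18.8% of all genes were called.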
